A study of Homo sapiens with 8 samples.

Results

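The genes described here are those of glycolysis, the conversion of glucose to pyruvate and lactate, together with genes of the cellular response to low oxygen. They were taken from a fixed list of 33 Ensembl gene IDs with their symbols. Of these, 32 were rows of the deposited table of 19002 genes, and PGAM1, the phosphoglycerate mutase of the list, was not analysed here. The 32 genes comprised 22 of glycolysis and its neighbouring steps and 10 of the hypoxia response. Their levels were measured in 2 established human colorectal cancer cell lines, LoVo, which was derived from a metastasis of a colon adenocarcinoma, and GP5d, which was derived from a primary colon tumour. Both lines were cultured on plastic in DMEM with 10% FBS and antibiotics to 80% confluency, with no treatment named, and each was profiled on 4 arrays that the labels call biological replicates. Whether the lines or the replicates shared a culture day was not stated, so a difference of culture day cannot be told apart from one of line. The p-values set the line difference against the spread between these cultures within each line. The epithelial identity of the lines could not be checked against marker genes, because only the IDs of the list were paired with symbols here.

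Glycolysis begins with glucose entry through transporters of the SLC2A family, goes on through hexokinase, phosphofructokinase and aldolase, and ends with pyruvate kinase, after which pyruvate is either oxidised in mitochondria or reduced to lactate and exported. Many of these genes are transcribed under the control of hypoxia-inducible factor, whose alpha subunit is marked for destruction by oxygen-dependent prolyl hydroxylases and accumulates when oxygen is short. The same factor induces genes for blood vessel growth, pH control and mitophagy, and colorectal tumours are known for high glucose uptake.

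Each array gave a log2 value per gene. Levels of different genes rest on different probes and were not set against each other. The values of all genes had a peak among the lowest of them, and a value at or below its upper end, 2.81, was treated as having no reliable order. SLC2A3 and ANKRD37 lay in this low peak on all 8 arrays, and the other 30 genes had means above it. LoVo replicate 3 stood apart from the other arrays of its line over all genes, with correlations of 0.989 to 0.991 to them, where the other LoVo arrays reached 0.996 to 0.997. Among the GP5d arrays, replicates 1 and 2 and replicates 3 and 4 were the closest pairs, with correlations of 0.9984 and 0.9983 against 0.9973 to 0.9976 between the pairs.

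LoVo had lower levels than GP5d of a glucose transporter, a brain-type aldolase and a lactate exporter. A kinase that holds back pyruvate oxidation and several classical hypoxia targets were also lower in LoVo. BNIP3 (ENSG00000176171_at), a mitophagy receptor that hypoxia induces, went the other way and was much higher in LoVo. A gene was called where limma's adjusted p over all 19002 genes was under 0.05 and its log2 difference reached 1 in size, which is 2-fold. By this rule 11 of the 32 genes were called, 1 higher and 10 lower in LoVo. Over all genes tested the rule called 13.3%, with 6.12% higher in LoVo and 7.2% lower in LoVo. Among the genes with a mean above the low peak, as 30 of the 32 had, it called 22.9%. It called 5 of the 22 glycolysis genes, near that share, and 17 were not called. With LoVo replicate 3 left out, 1 member was called higher and 9 lower in LoVo, beside 13.5% of all genes. The arrays of the lines did not overlap for 19 of the 32 genes, against 44.1% of all genes, and ANKRD37, in the low peak on all 8 arrays, is 1 of the 19. In RNA from whole cultures, fewer expressing cells and less RNA per cell cannot be told apart. The median log2 difference (LoVo minus GP5d) of the 32 genes was -0.33, and that of all genes was 0.05. On the adjusted p alone 20 of the 32 passed, 3 higher and 17 lower in LoVo, where 43.3% of all genes passed, 21.5% higher and 21.9% lower in LoVo. Both 43.3% and 44.1% cover all genes, those in the low peak included, and no share among genes above it was taken. ANKRD37 is also among the 17, which leaves 16 above the low peak.

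**Figure D1:**
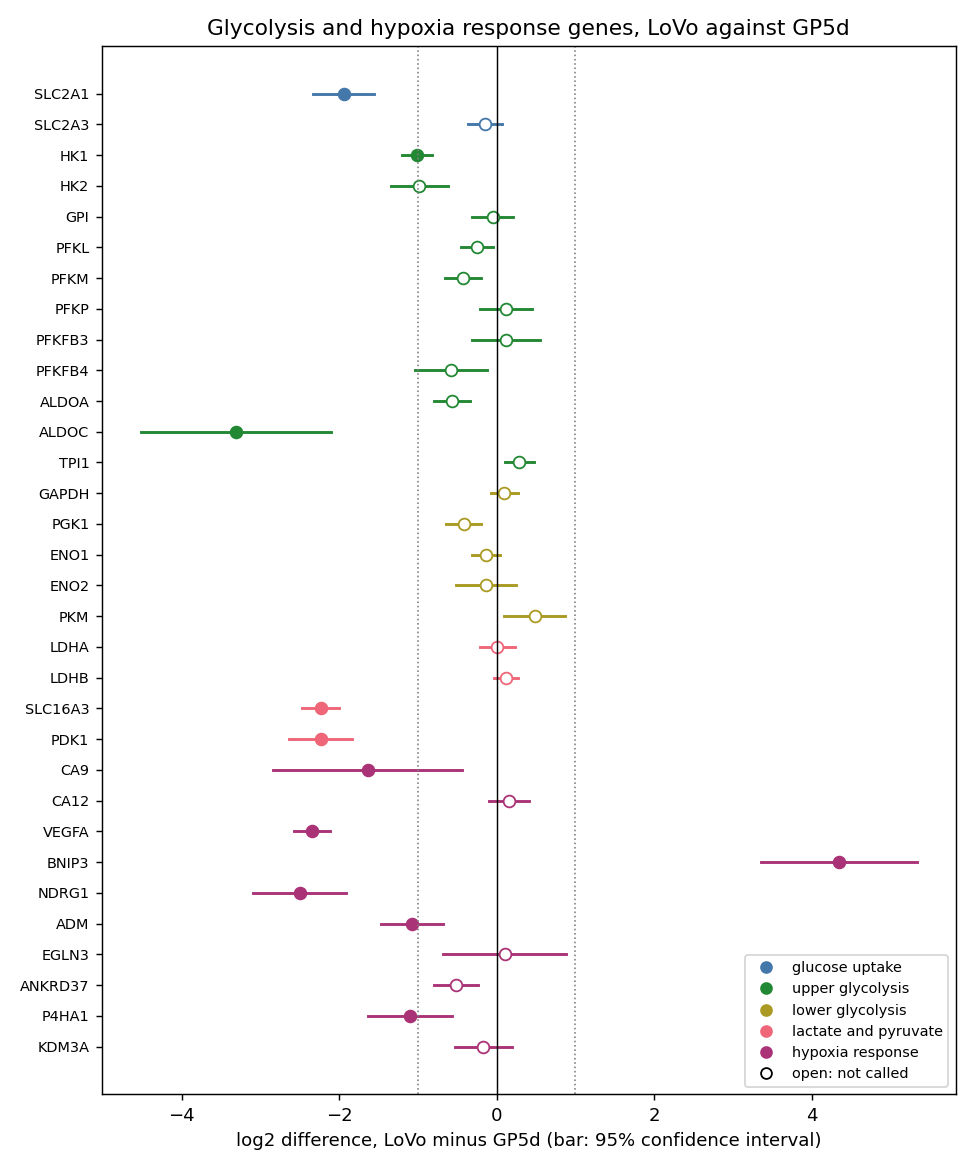
The log2 difference, LoVo minus GP5d, is plotted for the 32 genes, ordered by their role, with a bar for the 95% confidence interval of limma. Filled points are the 11 called genes, dotted lines mark log2 differences of -1 and 1, and BNIP3 at 4.35 is the only called gene to the right of 0.

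Glucose entry was represented by 2 transporters. SLC2A1 (ENSG00000117394_at), the GLUT transporter that most proliferating cells use, had log2 values of 6.77, 6.72, 7.43 and 6.99 on the LoVo arrays, against 9.01, 9.19, 8.86 and 8.61 on the GP5d arrays. All LoVo arrays lay below all GP5d arrays, and the highest LoVo value was that of replicate 3. The mean (± SD, n = 4 per line) was 6.98 ± 0.323 in LoVo and 8.92 ± 0.247 in GP5d, a log2 difference of -1.94 (SE 0.172, adjusted p = 9.7e-06 by limma), so that GP5d was 3.84-fold higher. SLC2A3, the neuronal-type transporter, was in the low peak in both lines, at 1.95 to 2.30 in LoVo and 2.14 to 2.34 in GP5d, and gave no usable fold.

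The hexokinases stand at the first step of glycolysis and trap glucose in the cell as its phosphate. HK1 (ENSG00000156515_at), the broadly expressed form, had values of 8.57, 8.25, 8.46 and 8.45 in LoVo, against 9.44, 9.45, 9.42 and 9.45 in GP5d. The LoVo arrays were lower throughout and the GP5d arrays were almost level, with an SD of 0.0138 (n = 4). Its log2 difference was -1.01 (SE 0.0843, adjusted p = 6.22e-06 by limma), just past the 2-fold minimum. After a common median, quantile normalization or cyclic loess it was -0.98, -0.98 and -0.97, and without LoVo replicate 2 it was -0.95, each short of that minimum. HK2 (ENSG00000159399_at), the hexokinase that hypoxia and growth signals induce, had values of 9.90, 9.60, 9.05 and 9.70 in LoVo, against 10.50, 10.69, 10.48 and 10.50 in GP5d. It was also lower in LoVo without overlap, with LoVo replicate 3 the lowest array, but its log2 difference of -0.98 (SE 0.162, adjusted p = 0.00067 by limma) fell just short of the 2-fold minimum. Without LoVo replicate 1, LoVo replicate 4 or GP5d replicate 3 it was -1.09, -1.03 and -1.002 and was called.

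The phosphofructokinase step, the main control point of the pathway, held no called gene. With 22.9% of all genes with a mean above the low peak called, this does not set the step apart. GPI, the isomerase before it, had a log2 difference of -0.05 with a 95% interval of -0.31 to 0.21. Among the phosphofructokinase subunits, PFKM (muscle type) was lower in LoVo by a log2 difference of -0.43 (SE 0.101, adjusted p = 0.00592 by limma), PFKL (liver type) had a log2 difference of -0.25 (95% interval -0.45 to -0.04) and PFKP (platelet type) one of 0.13 (95% interval -0.20 to 0.45). PFKFB3 and PFKFB4 encode the bifunctional enzymes that make and remove the allosteric activator of phosphofructokinase. PFKFB3 had values of 8.47, 8.32, 7.98 and 8.30 in LoVo, against 8.14, 8.67, 8.11 and 7.66 in GP5d, and the lines overlapped. PFKFB4 had values of 3.28, 3.12, 3.64 and 3.16 in LoVo, against 4.01, 4.37, 3.79 and 3.34 in GP5d, a log2 difference of -0.58 (SE 0.203, adjusted p = 0.0419 by limma) with GP5d replicate 4 inside the LoVo range.

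The aldolases, which split fructose bisphosphate, differed unequally between the lines. ALDOA, the form of muscle and most tumour cells, was lower in LoVo by a log2 difference of -0.57 (SE 0.102, adjusted p = 0.00117 by limma), with 11.93 to 12.23 in LoVo and 12.54 to 12.86 in GP5d. ALDOC (ENSG00000109107_at), the brain-type form and a known hypoxia target, had values of 5.65, 5.61, 3.95 and 5.76 in LoVo, against 9.19, 9.68, 7.92 and 7.41 in GP5d. The lines were far apart, but LoVo replicate 3 lay well below the other LoVo arrays and the GP5d arrays spread over more than 2 log2 units. The log2 difference was -3.31 (SE 0.54, adjusted p = 0.000621 by limma), a 9.91-fold higher level in GP5d. Without LoVo replicate 3 it was -2.88. TPI1, triose phosphate isomerase, was slightly higher in LoVo, at 12.15 to 12.26 against 11.76 to 12.05 in GP5d, with a log2 difference of 0.29 (SE 0.0845, adjusted p = 0.0183 by limma).

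The lower part of the chain, from glyceraldehyde phosphate to pyruvate, held no called gene among its 5 measured members. Among all genes with a mean above the low peak 22.9% were called, so this small count does not set these members apart. GAPDH, often used as a reference gene, was at 13.68 to 13.87 in LoVo and 13.63 to 13.74 in GP5d, with a log2 difference of 0.10 (95% interval -0.07 to 0.27). Its values lie near the highest of all arrays, 14.7, and whether saturation limited them was not tested. PGK1, phosphoglycerate kinase, was lower in LoVo by a log2 difference of -0.42 (SE 0.0978, adjusted p = 0.00579 by limma), with 9.91 to 10.12 in LoVo and 10.21 to 10.59 in GP5d. The enolases differed by -0.14 for ENO1, the ubiquitous form (95% interval -0.31 to 0.04), and by -0.13 for ENO2, the neuronal form (95% interval -0.51 to 0.25). PKM, pyruvate kinase, whose splice forms this table does not separate, had values of 10.28, 10.53, 10.95 and 11.04 in LoVo, against 10.08, 10.51, 10.17 and 10.12 in GP5d. The LoVo arrays of PKM spread more and overlapped with GP5d replicate 2, and the log2 difference was 0.48 (SE 0.172, adjusted p = 0.0454 by limma). Several of these enzymes have processed pseudogenes of near-identical sequence, and probes that also hybridise to such copies were not separated here.

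At the fate of pyruvate, neither lactate dehydrogenase subunit passed the test, and the lactate exporter and the pyruvate dehydrogenase kinase were lower in LoVo. LDHA, the subunit that favours lactate formation, was at 13.40 to 13.48 in LoVo and 13.21 to 13.63 in GP5d, with a log2 difference of 0.01 (95% interval -0.21 to 0.23). LDHB, the subunit that favours lactate use, had a log2 difference of 0.12 (95% interval -0.03 to 0.28). These values lie near the upper end of the array scale, which reached 14.7, and whether they were limited by saturation was not tested. SLC16A3 (ENSG00000141526_at), the monocarboxylate transporter that exports lactate, had values of 3.91, 4.17, 4.16 and 4.28 in LoVo, against 6.23, 6.55, 6.39 and 6.29 in GP5d. The replicates of each line agreed closely and the lines did not overlap. Its log2 difference was -2.23 (SE 0.105, adjusted p = 1.1e-07 by limma), a 4.70-fold higher level in GP5d. PDK1 (ENSG00000152256_at), the kinase that inactivates pyruvate dehydrogenase, had values of 5.16, 5.10, 5.35 and 5.31 in LoVo, against 7.63, 7.92, 7.31 and 6.98 in GP5d. Again the lines were separate, with more spread in GP5d, and the log2 difference was -2.23 (SE 0.178, adjusted p = 4.55e-06 by limma).

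Of the 10 genes of the hypoxia response, 6 were called, 5 lower and 1 higher in LoVo, beside 13.3% of all genes and 22.9% of those with a mean above the low peak. Their median log2 difference was -0.79. VEGFA (ENSG00000112715_at), the growth factor for blood vessels, had values of 3.99, 4.05, 3.90 and 4.02 in LoVo, against 6.48, 6.49, 6.27 and 6.09 in GP5d. Its replicates were tight in both lines and its log2 difference of -2.35 (SE 0.102, adjusted p = 6.74e-08 by limma) had the smallest p of the 32 genes. GP5d was 5.08-fold higher. ADM (ENSG00000148926_at), adrenomedullin, a vasodilator peptide, had values of 8.32, 8.13, 8.63 and 8.20 in LoVo, against 9.34, 9.87, 9.36 and 9.01 in GP5d. It was lower in LoVo without overlap, by a log2 difference of -1.07 (SE 0.177, adjusted p = 0.000682 by limma), and without GP5d replicate 2 by -0.91, short of the minimum.

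NDRG1 (ENSG00000104419_at), a stress-induced gene linked to differentiation of colon epithelium, had values of 6.53, 6.25, 6.32 and 6.01 in LoVo, against 9.15, 9.32, 8.71 and 7.94 in GP5d. All LoVo arrays were lower, GP5d replicate 4 was the nearest to them, and the log2 difference was -2.50 (SE 0.263, adjusted p = 3.1e-05 by limma), a 5.66-fold higher level in GP5d. P4HA1 (ENSG00000122884_at), a collagen prolyl hydroxylase subunit, had values of 10.28, 10.05, 10.27 and 10.10 in LoVo, against 11.58, 11.91, 10.91 and 10.70 in GP5d. The lines did not overlap, and the log2 difference was -1.10 (SE 0.236, adjusted p = 0.00349 by limma). Without GP5d replicate 1 it was -0.998 and without GP5d replicate 2 it was -0.89, each short of the minimum.

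The carbonic anhydrases of the list buffer the acid that glycolysis produces. CA9 (ENSG00000107159_at), among the most widely used hypoxia markers, had values of 2.80, 2.71, 2.49 and 2.81 in LoVo, against 5.22, 5.74, 3.44 and 2.95 in GP5d. CA9 was thus in the low peak on all 4 LoVo arrays, clearly above it on GP5d replicates 1 and 2, and only a little above it on GP5d replicate 4. The mean (± SD, n = 4 per line) was 2.70 ± 0.147 in LoVo and 4.34 ± 1.35 in GP5d, with a log2 difference of -1.63 (SE 0.538, adjusted p = 0.0322 by limma). With each LoVo value raised to 2.81, GP5d was at least 2.88-fold higher, but a fit on values so raised did not call CA9 (log2 difference -1.53, adjusted p = 0.145 by limma). On the deposited values the call was also lost without any 1 of the LoVo arrays, without GP5d replicate 1 (log2 difference -1.34) or without GP5d replicate 2 (-1.17), with adjusted p between 0.0585 and 0.0912. CA12, the other cell-surface form, did not pass, with 5.12 to 5.47 in LoVo and 4.94 to 5.31 in GP5d and a log2 difference of 0.16 (95% interval -0.10 to 0.42).

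BNIP3 was the called gene that was higher in LoVo. It had values of 6.54, 5.95, 6.60 and 8.25 in LoVo, against 1.87, 3.09, 2.33 and 2.66 in GP5d. On 3 of the 4 GP5d arrays it was in the low peak, and LoVo replicate 4 was well above the other LoVo arrays. The mean (± SD, n = 4 per line) was 6.84 ± 0.988 in LoVo and 2.49 ± 0.518 in GP5d, and the log2 difference was 4.35 (SE 0.442, adjusted p = 2.47e-05 by limma). This is 20.3-fold as deposited and 15.5-fold once low values are raised to 2.81. Without LoVo replicate 4 the log2 difference was 3.87.

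The remaining members did not separate the lines at the 2-fold level. EGLN3 (ENSG00000129521_at), the prolyl hydroxylase that is itself induced by the factor it destroys, had values of 4.48, 4.54, 4.39 and 4.34 in LoVo, against 4.78, 5.28, 3.96 and 3.32 in GP5d. Here the LoVo arrays were tight and lay in the middle of the GP5d range, with GP5d replicates 1 and 2 above them and replicates 3 and 4 below. KDM3A, a histone demethylase, had values of 4.36, 4.00, 4.27 and 3.76 in LoVo, against 4.35, 4.57, 4.18 and 3.96 in GP5d, and the lines overlapped. ANKRD37, an ankyrin repeat protein, was in the low peak throughout, so its log2 difference of -0.51 was not read as a difference in level.

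**Figure D2:**
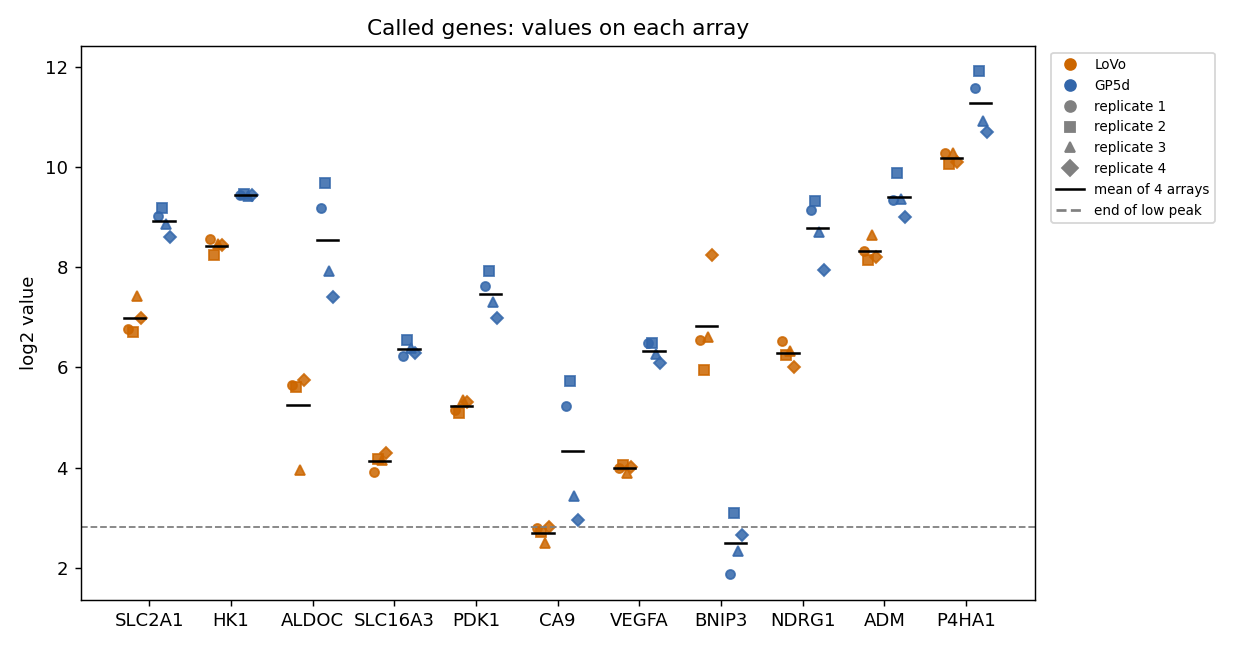
Log2 values on each of the 8 arrays are shown for the 11 called genes, LoVo in orange to the left of GP5d in blue, with a marker shape per replicate, a bar for the mean of 4 arrays and a dashed line at the end of the low peak (2.81). No gene shows overlap between the lines, and the GP5d arrays of ALDOC and CA9 are widely spread, from 7.41 to 9.68 and from 2.95 to 5.74.

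Hypoxia-inducible factor binds short DNA elements whose core reads ACGTG or GCGTG. Promoters of called members, BNIP3 included, are shown with these cores marked. Whether the factor acts on them in these cells was not tested. Windows of 250 bases before each annotated gene start were taken from RefSeq (GRCh38.p14), which matched 29 of the 32 symbols and 9 of the 11 called genes. The 6 called genes with a single window are printed 5′ to 3′ on the strand of the gene, with the letters of either core on either strand in capitals (the reverse complements read CACGT and CACGC). SLC2A1 is at chr1:42958869-42959118 (minus strand), ALDOC at chr17:28576896-28577145 (minus), CA9 at chr9:35673678-35673927 (plus), BNIP3 at chr10:131981924-131982173 (minus), ADM at chr11:10304823-10305072 (plus) and P4HA1 at chr10:73096867-73097116 (minus).
SLC2A1: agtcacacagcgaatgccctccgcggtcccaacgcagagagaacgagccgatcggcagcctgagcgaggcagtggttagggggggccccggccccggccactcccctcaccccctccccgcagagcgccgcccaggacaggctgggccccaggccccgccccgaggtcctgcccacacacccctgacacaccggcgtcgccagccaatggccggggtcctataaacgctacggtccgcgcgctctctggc
ALDOC: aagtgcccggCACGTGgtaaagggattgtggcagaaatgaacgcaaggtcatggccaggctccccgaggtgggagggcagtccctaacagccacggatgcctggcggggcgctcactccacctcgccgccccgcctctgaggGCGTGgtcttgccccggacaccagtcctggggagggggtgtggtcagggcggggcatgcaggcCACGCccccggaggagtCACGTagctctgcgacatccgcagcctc
CA9: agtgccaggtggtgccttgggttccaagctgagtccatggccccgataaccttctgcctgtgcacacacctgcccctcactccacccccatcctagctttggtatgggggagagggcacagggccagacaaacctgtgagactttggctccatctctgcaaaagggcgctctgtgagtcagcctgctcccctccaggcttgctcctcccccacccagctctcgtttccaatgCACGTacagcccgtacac
BNIP3: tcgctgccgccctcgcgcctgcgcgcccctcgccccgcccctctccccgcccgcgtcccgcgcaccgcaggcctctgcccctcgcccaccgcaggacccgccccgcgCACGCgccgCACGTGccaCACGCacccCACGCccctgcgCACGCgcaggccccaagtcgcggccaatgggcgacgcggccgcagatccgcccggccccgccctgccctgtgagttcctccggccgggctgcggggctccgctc
ADM: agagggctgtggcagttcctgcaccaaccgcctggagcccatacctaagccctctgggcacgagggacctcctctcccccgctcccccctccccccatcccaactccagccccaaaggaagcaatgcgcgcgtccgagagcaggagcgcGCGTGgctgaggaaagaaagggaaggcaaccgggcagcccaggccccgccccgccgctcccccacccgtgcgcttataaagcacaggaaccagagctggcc
P4HA1: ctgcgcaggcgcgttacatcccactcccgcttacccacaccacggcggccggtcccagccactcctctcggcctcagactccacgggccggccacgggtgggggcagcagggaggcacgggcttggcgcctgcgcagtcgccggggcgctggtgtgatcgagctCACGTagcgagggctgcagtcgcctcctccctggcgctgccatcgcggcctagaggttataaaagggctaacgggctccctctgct

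The window of ALDOC held 5 matches, 3 to ACGTG and 2 to GCGTG. That of CA9 held 1 match to ACGTG, which begins 18 bases before the start, and that of P4HA1 also 1, 86 bases before it. ADM had 1 match to GCGTG and SLC2A1 had 0 matches to either core in this window. BNIP3, the gene higher in LoVo, held 6 matches, 2 to ACGTG and 4 to GCGTG. Matches to the palindrome CACGTG count on both strands. Over all windows of the 29 matched genes, 21 of 56 (37.5%) held ACGTG, against 18.5% of all 35116 windows in the table, and 19 of 56 (33.9%) held GCGTG, against 32.2%. Over the windows of the called genes alone, 6 of 20 (30.0%) held ACGTG and 6 of 20 (30.0%) held GCGTG. Either core was in 60.7% of the windows of the matched genes, 50.0% of those of the called genes and 43.2% of all windows. The list was drawn up from glycolysis and hypoxia response genes, so its share beside that of all windows does not bear on the difference between the lines. Windows of the same gene are not independent, and a match in letters does not show binding.

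Within GP5d the members varied from array to array, and many did so together. This was examined for the 29 members whose mean in GP5d lay above the low peak, which leaves out SLC2A3, ANKRD37 and BNIP3. CA9, ALDOC and EGLN3 had SDs of 1.35, 1.06 and 0.870 over the 4 GP5d arrays, which ranked 2, 6 and 8 among the 10234 genes with a GP5d mean above the low peak. NDRG1 (0.615) and P4HA1 (0.566) ranked 29 and 45. In all, 10 of the 29 members had an SD beyond the 95th percentile of those genes, 0.293, and the other 5 were PFKFB4, PFKFB3, PDK1, ENO2 and ADM. The median SD was 0.191 for the 29 members and 0.104 for all 10234 genes. In LoVo, where CA9 and not BNIP3 was in the low peak, 2 of 29 members, ALDOC and BNIP3, lay beyond the 95th percentile of 0.535, and the median SD was 0.150 for the members against 0.193 for all 10143 genes. The counts of 10 and 2 rest on unlike cut-offs, and LoVo replicate 3 stood apart over all genes. In LoVo the SDs of SLC2A1 (0.323), PKM (0.357) and HK2 (0.365) lay between the cut-offs.

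**Figure D3:**
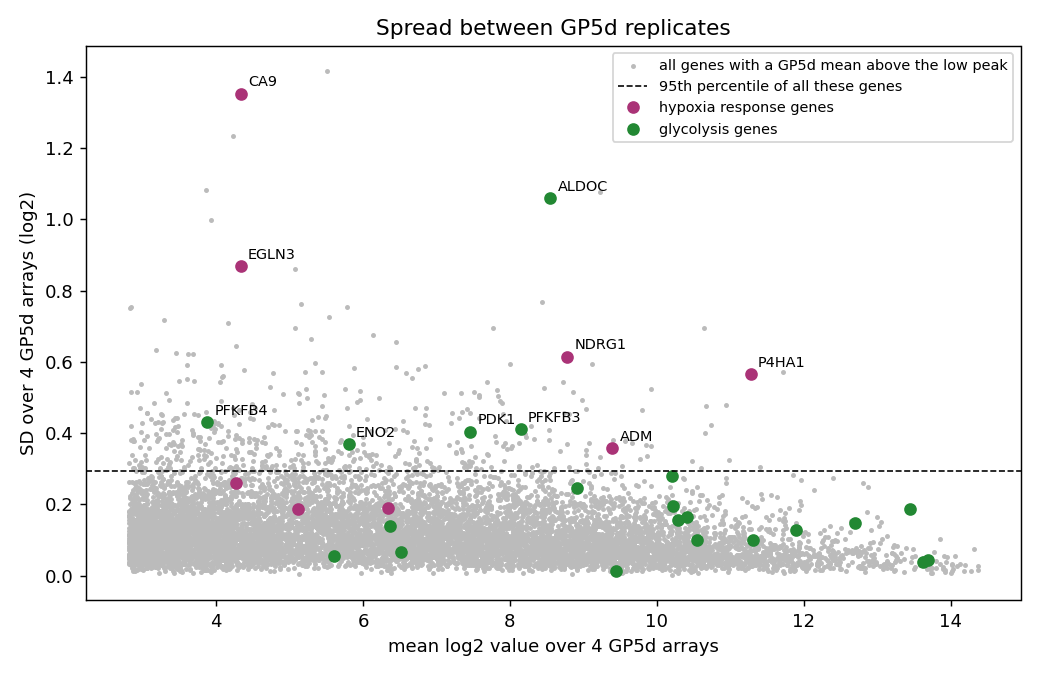
The SD over the 4 GP5d arrays (log2) is plotted against the mean log2 value in GP5d for 10234 genes with a GP5d mean above the low peak (grey) and for the 29 members among them, with hypoxia response genes in purple and glycolysis genes in green. The dashed line is the 95th percentile, 0.293, and the 10 labelled members lie above it.

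The GP5d arrays kept much the same order from gene to gene. Replicate 2 was the highest GP5d array for 24 of the 29 members (82.8%), against 26.3% of all 10234 genes, and replicate 4 was the lowest for 18 of 29 (62.1%), against 21.6%. The full order of replicate 2 above 1 above 3 above 4 was seen in 16 of 29 members (55.2%) and in 6.76% of all those genes. These 16 included 6 of the 8 hypoxia response genes among the 29 (CA9, VEGFA, NDRG1, EGLN3, P4HA1 and KDM3A) and 10 of the 21 glycolysis genes, among them SLC2A1, ALDOA, ALDOC, PGK1, LDHA and PDK1. Replicates 1 and 2 both lay above replicates 3 and 4 for 20 of 29 members (69%), against 25.3% of all those genes. The opposite was seen in PFKM and CA12, 2 of 29 (6.9%), against 26.8%. These shares are descriptions, since the members were counted on the same 4 arrays and are not independent of each other. HK1, SLC16A3 and LDHB, among others, did not follow the order.

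In LoVo no array was the highest or the lowest for most members, and the full order of the arrays was not counted there. Replicate 4 was the highest LoVo array for 11 of 29 members (37.9%), against 23.1% of the 10143 genes. Replicate 3 was the lowest for 10 of 29 (34.5%), against 41%, and replicate 2 for 9 of 29 (31%), against 17.5%. ALDOC was low on LoVo replicate 3 while SLC2A1 and ADM were at their highest there. BNIP3 stood out on replicate 4 alone.

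**Figure D4:**
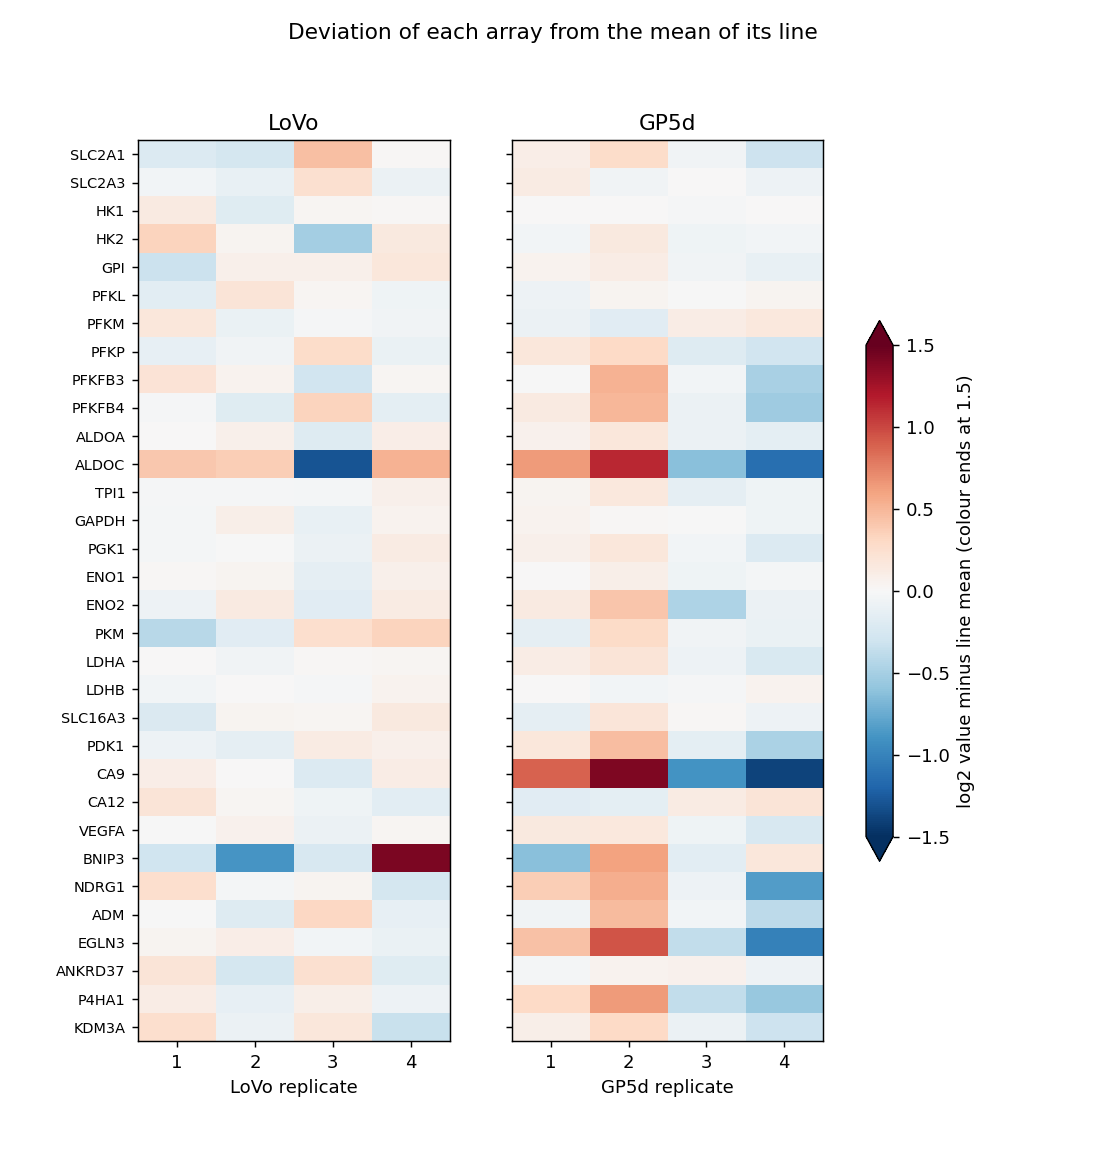
Each cell is the log2 value of a gene on an array minus the mean of the 4 arrays of its line, for the 32 genes in rows and the replicates in columns, LoVo on the left and GP5d on the right (red above the line mean, blue below). In GP5d most rows are red in replicate 2 and blue in replicate 4, most strongly CA9, ALDOC and EGLN3. In the LoVo panel no column is the highest or the lowest for most rows.

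Because the GP5d arrays differed in this way, the line difference was refitted without replicates 1 and 2 together and without replicates 3 and 4 together, a choice made after their values had been seen. For members lower in LoVo with GP5d replicates 1 and 2 above 3 and 4, keeping 3 and 4 shrinks the difference by construction. The refits are therefore no independent support for the calls. With only GP5d replicates 3 and 4 kept, 8 of the members were called, BNIP3 higher and 7 lower in LoVo. That refit called 6.08% of all genes higher and 6.96% lower in LoVo. The log2 differences were -1.76 for SLC2A1, -2.43 for ALDOC, -1.92 for PDK1, -2.19 for VEGFA and -2.05 for NDRG1. CA9, ADM and P4HA1 fell short of the call, with -0.49, -0.86 and -0.63. With only GP5d replicates 1 and 2 kept, the same genes were at -2.13 (SLC2A1), -4.19 (ALDOC), -2.55 (PDK1), -2.50 (VEGFA), -2.96 (NDRG1), -2.78 (CA9), -1.28 (ADM) and -1.57 (P4HA1), and 11 members were called lower in LoVo, where 7.3% of all genes were. SLC16A3 hardly moved, at -2.21 and -2.26, and neither did BNIP3, at 4.34 and 4.35. The sign of EGLN3 depended on the arrays, with 0.80 for replicates 3 and 4 kept and -0.59 for replicates 1 and 2 kept. No label tells the GP5d cultures apart, and what set them apart was not tested.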

How the data were processed

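RNA of 4 LoVo and 4 GP5d cultures was measured on Affymetrix arrays, 1 per culture, per the labels' protocols. The authors deposited log2 values for 19002 Ensembl genes in 8 columns, taken as log2 because they run from 0.472 to 14.7. Per the submitters' processing notes RMA and GCRMA were used, and which of them made the values, like the array type, stayed unknown. The reference gene table holds Ensembl IDs for 0 of 59792 genes, so symbols are those listed with the member IDs, and further pathway genes and cell type markers were not run.

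Lines were compared with limma 3.58.1 (R 4.3.3; lmFit, eBayes, line as the only factor, 6 residual degrees of freedom) on the deposited values over all rows with Benjamini-Hochberg adjustment. On simulated data the fit was tested before use. Array number limits precision, with a median SE of 0.109. The low peak ends at its mode (1.88) plus 3 times the SD below it (0.312). Every member is named. Members and lists were chosen with earlier results of these data known. Alternatives were other normalizations, a filter, a floor, variance priors, array weights, a replicate block, arrays left out, other minimum differences and limma's treat. Figures used matplotlib 3.10.9, and sequences came from RefSeq. Spread and order within a line were taken over genes with a mean above the low peak in that line.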

Additional observations from a re-analysis of the deposited data

Results flagged for a closer look

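In 64 comparisons of 4 arrays of a line, 3 had an array far from the other 3 by Dixon's test, where chance gives about 1 in 20. ALDOC on LoVo replicate 3 was at 3.95, with the other LoVo arrays at 5.61 to 5.76. TPI1 on LoVo replicate 4 was at 12.3, with the others at 12.15 to 12.16, so the gap there is small in absolute terms. HK2 on GP5d replicate 2 was at 10.7, with the others at 10.48 to 10.50.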

How the results depend on the processing

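Of the 11 called genes, 7 (SLC2A1, ALDOC, SLC16A3, PDK1, VEGFA, BNIP3 and NDRG1) kept their direction and call in all 19 alternatives that gave each gene a value. HK1 kept it in 14, ADM in 16, P4HA1 in 15 and CA9 in 9. The 19 include the refits without GP5d replicates 1 and 2 and without replicates 3 and 4. Those refits were chosen after the values had been seen and were not planned. With 1 array left out, 1 member was called higher in every fit and 7 to 11 lower in LoVo, 2499 to 2580 of all genes were called, and the members' median log2 difference was -0.35 to -0.30. That median, -0.33 as deposited, was -0.46 without GP5d replicates 3 and 4, -0.27 without GP5d replicates 1 and 2 and -0.21 with low values raised to the end of the low peak. By construction, the minimum difference set the counts. With none, 3 members were called higher and 17 lower (8230 of all genes). With a log2 difference of 2, BNIP3 was called higher and 5 members lower (721 of all genes). The treat method of limma called BNIP3 higher and 6 members lower (1250 of all genes). Raising low values to the end of the low peak took the adjusted p of CA9 to 0.145, and array weights took it to 0.0608. Scaling moved the median of all genes to between 0.00 and 0.08. Uncalled differences changed sign for GPI (0.0453 after quantile normalization, -0.108 to 0.0579 with 1 array left out, 0.0311 without GP5d replicates 1 and 2), LDHA (-0.0423 after quantile normalization, -0.0091 with array weights, -0.0688 to 0.0708 with 1 array left out, -0.142 without GP5d replicates 3 and 4), ENO2 (-0.289 to 0.00427 with 1 array left out, 0.140 without GP5d replicates 1 and 2), EGLN3 (-0.237 to 0.419 with 1 array left out, -0.592 without GP5d replicates 3 and 4), PFKFB3 (-0.0397 to 0.296 with 1 array left out, -0.138 without GP5d replicates 3 and 4), KDM3A (0.0288 without GP5d replicates 1 and 2) and PFKP (-0.111 without GP5d replicates 3 and 4); the cause was not tested. Same-numbered arrays of the lines did not deviate together (correlations of -0.0341 to 0.0488). With the replicate number as a block, 1 member was called higher and 10 lower, as without it.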
